A study of Mus musculus with 16 samples.

Results

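Glucose enters a B cell through the transporter encoded by Slc2a1 and is broken down by the enzymes of glycolysis, and Ndrg1 is a gene known to be switched on when oxygen is scarce. The set described here holds 10 genes chosen by name: Slc2a1, Hk2, Pfkl, Aldoa, Gapdh, Pgk1, Eno1, Ldha and Pdk1 of glucose breakdown, and Ndrg1. They were chosen with their log2 ratios in all samples and in the 4 group comparisons already known, so those values are given as a description. The outcome of the limma test is given for them only as a count beside that of all genes, and nothing is read from it. Of the 10 genes, 9 had a probe under their own name on the array, with 13 distinct probes out of 41174 and 22 spots per array. Gapdh had none under that name. All 13 probes passed the filter on dim probes and carry the scanner software's mark for a signal well over background on all 16 arrays. None of their spots was saturated in the channel that held the sample. The 9 measured genes are among 20469 genes tested.

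RNA of follicular B cells, the recirculating mature B cells found in follicles of spleen and lymph nodes, was measured on 2-colour Agilent arrays. The mouse strain was C.B17. There were 8 biological samples, each hybridised on 2 arrays with the dyes exchanged against a reference pooled from 6 cell lines, namely P388d, DN3, EL4, J558, RS2 and R1. The Auto.Neg group (n = 2) carried the transgenes VH3609µ and Vk21-5κ, which encode a receptor against Thy-1 of thymocytes, and lacked Thy-1 (Thy-1 knockout). The Auto.Pos group (n = 2) carried VH3609µ and Vk19-17κ, a receptor against intestinal goblet cells, for which another label field writes Vkappa17-17kappa. No Thy-1 knockout is given for this group. The WT group (n = 2) was wild type. The Non-edited and the Edited group (n = 1 each) share the genotype VH3609t +/- x Vk21-5Tg +/- on a Thy-1 knockout background. Receptor editing means that a B cell rearranges another antibody gene and so exchanges a chain of its receptor. The labels give no age, no promoter of the transgenes and no statement that samples of a group were separate mice, so every standard error covers only the spread between these samples. By their labels, the groups set B cells whose receptor can meet its antigen beside cells whose antigen is missing.

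Glycolysis turns glucose into pyruvate. Lactate dehydrogenase can turn pyruvate into lactate, while pyruvate dehydrogenase, which Pdk1 inhibits, sends it into the mitochondria. Under low oxygen the hypoxia-inducible factors (HIF) raise the transcription of most of these genes and of Ndrg1, through short DNA elements with the core letters ACGTG or GCGTG. Resting follicular B cells are metabolically quiet, and engagement of the B cell receptor is known to raise their glucose uptake and glycolytic enzymes.

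Sequences of 2 members' promoters and of 4 probes come before the values. The first pair are promoters of members that are textbook HIF targets, given as the 250 bases before the gene start in GRCm38.p6 (RefSeq), with each ACGTG or GCGTG core on either strand in capitals. The Ldha window lies at chr7:46845554-46845803 and the Pgk1 window at chrX:106186850-106187099, both on the plus strand.
Ldha promoter: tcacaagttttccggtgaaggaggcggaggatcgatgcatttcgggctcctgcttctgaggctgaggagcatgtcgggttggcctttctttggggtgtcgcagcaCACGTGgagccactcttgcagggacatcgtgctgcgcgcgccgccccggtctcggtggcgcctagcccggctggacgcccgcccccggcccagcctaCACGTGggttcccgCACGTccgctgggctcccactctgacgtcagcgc
Pgk1 promoter: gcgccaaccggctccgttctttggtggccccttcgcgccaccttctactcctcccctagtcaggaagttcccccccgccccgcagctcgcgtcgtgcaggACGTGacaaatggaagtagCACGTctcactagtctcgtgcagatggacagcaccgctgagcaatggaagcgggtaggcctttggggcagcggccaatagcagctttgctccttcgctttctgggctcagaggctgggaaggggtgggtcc
The Ldha window holds 5 matches to ACGTG and the Pgk1 window 2, where each CACGTG counts once per strand. The promoter table matched 9 of the 10 members, and each of the 9 had ACGTG or GCGTG in at least 1 window (13 of 15 windows), against 38.6% of the 32851 windows of all genes in the table. Some windows of Eno1 and of Aldoa overlap each other, so the same letters can be counted more than once. The 38.6% is a share of windows and not of genes. A match to these letters is a description and not a shown binding site. Ndrg1 is named only.

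The next pair are the probes of Ldha and Eno1 that read lowest in the same samples, and the last pair are the probes that list the Gapdh transcript. All are printed as the scanner files give them, with mm7 coordinates.
Ldha upstream probe: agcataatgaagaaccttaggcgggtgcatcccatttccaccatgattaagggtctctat
Eno1 probe: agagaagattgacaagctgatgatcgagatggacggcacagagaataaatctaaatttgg
LOC380687 probe: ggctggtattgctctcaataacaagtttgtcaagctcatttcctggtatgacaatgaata
MGC68323 probe: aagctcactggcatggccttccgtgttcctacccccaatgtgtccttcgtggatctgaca
The Ldha upstream probe lies at chr7:43030257-43031186 and the Eno1 probe at chr4:149233567-149233792, both on the plus strand. Their 60 bases are spread over 930 and 226 bases of genome, so each bridges a gap in the genomic sequence, and each has 1 forward reading frame without a stop codon. The LOC380687 probe, at chr6:125188003-125188172 on the minus strand, also bridges a gap, over 170 bases. The MGC68323 probe, at chr1:180307516-180307575 on the minus strand, matches 1 unbroken stretch of 60 bases. Both list 4 RefSeq transcripts, the Gapdh transcript among them, so their signal cannot be given to Gapdh alone.

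B cell markers lay above the reference in all 8 samples (median log2 ratio of 10 genes 3.58 to 5.39), and T cell markers below it (-2.67 to -1.97). Between 61.9% and 81.9% of probes were well above background per array. There were 7 slides and 4 scan days, none of which held Auto.Neg together with WT. Auto.Neg sample 2 and Auto.Pos sample 1 shared slide 2 and correlated at 0.978 across genes, above the correlations within Auto.Neg, Auto.Pos and WT (0.903, 0.904 and 0.923). Values inside slide 2 and inside scan day 3, which held Auto.Pos sample 2 and WT sample 2, are therefore printed beside the group values. The submitters' table of log2 ratios goes against its own labels: 6 of its 16 columns matched the scanner file of the same name best and 10 another. Every value below follows the scanner files, and the values read by that table's labels are given for Ndrg1 and for the glycolysis median.

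Ndrg1, a cytoplasmic protein of stress response and differentiation, read 1.76 and 1.77 in the WT samples on the log2 scale of sample over reference. The Auto.Neg samples read -0.62 and 0.65, and the Auto.Pos samples -0.05 and -2.00. The Non-edited sample read -1.47 and the Edited sample 0.65. Both WT samples thus lay above all 6 others, the Auto.Neg and Auto.Pos samples overlapped, and Auto.Pos sample 2 and Non-edited were the lowest. The single probe lies on chromosome 15 from 67013174 to 67013233 (mm7, minus strand).

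Both dye orientations put the same samples at the ends of the Ndrg1 range. With the sample in Cy5 the WT samples read 1.58 and 1.56, and with the sample in Cy3 1.93 and 1.98. Auto.Pos sample 2 read -2.21 and -1.79 in these orientations, and Non-edited -1.61 and -1.34. Cy5 was the lower orientation in every sample, with a Cy5 minus Cy3 difference of at most 0.62 in size, beside a range of 3.76 over the 8 samples. The raw brightness of the spot in the sample channel had the same samples at the extremes, but the low end was close. It was 30900 to 44500 on the 4 WT arrays, 2880 and 4090 on those of Auto.Pos sample 2, 2470 and 3700 on those of Non-edited, and 16300 and 14800 on those of Edited. The arrays of Auto.Pos sample 1 read 3310 and 6040, those of Auto.Neg sample 1 3440 and 7070, and those of Auto.Neg sample 2 5600 and 9800. The reference channel read 15100 and 8980 for Auto.Pos sample 1 and 25600 and 22600 for Auto.Pos sample 2. In raw brightness these 2 samples thus differed by a larger factor in the reference channel than in the sample channel, in both dye orientations. Their gap in log2 ratio can therefore not be read as a difference in Ndrg1 RNA alone.

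**Figure D1:**
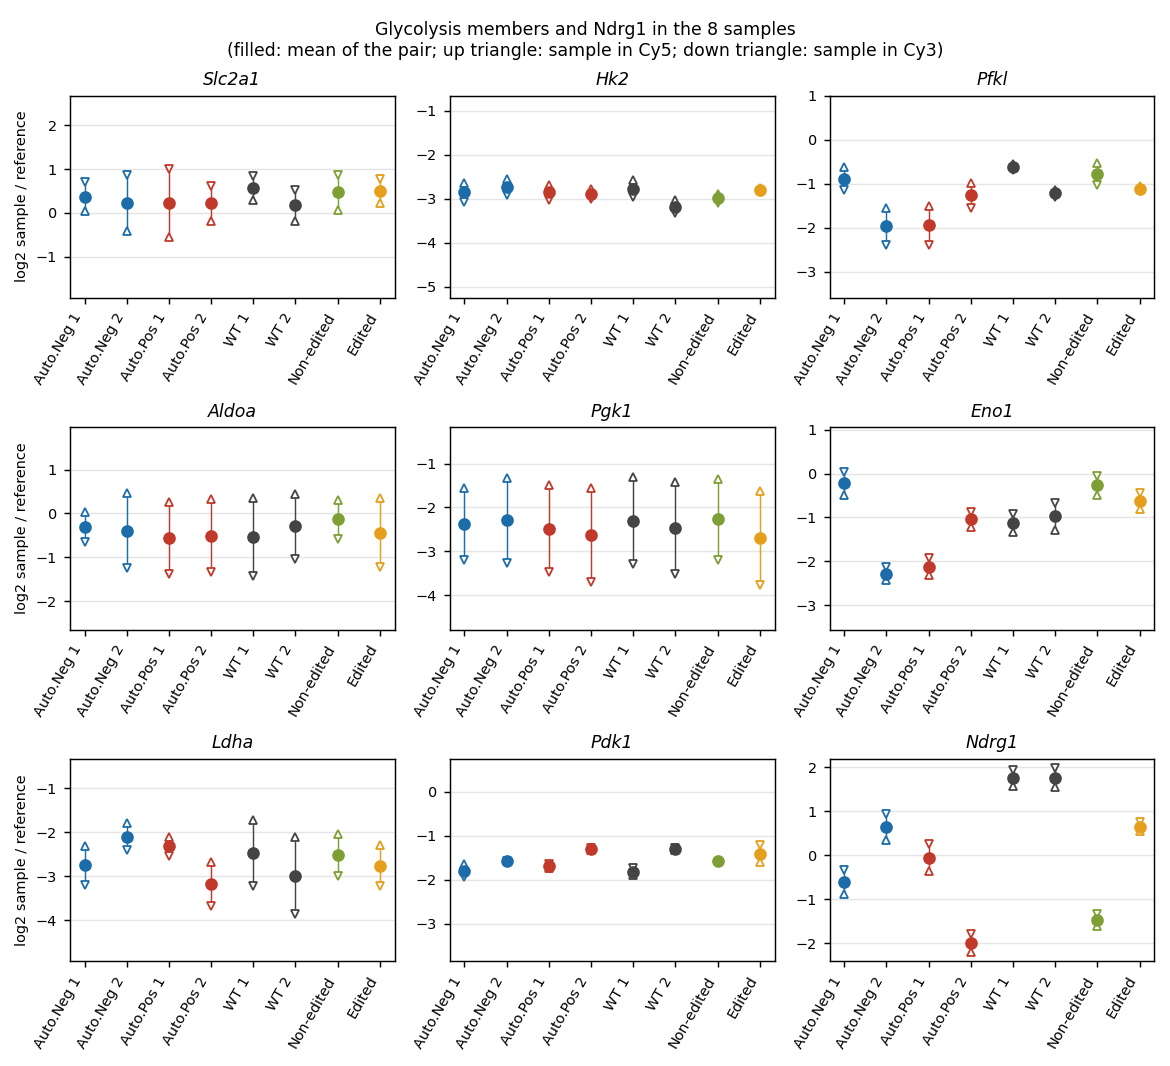
Log2 ratio of sample over reference (y axis, every panel spanning the same number of log2 units) of the 9 measured genes in the 8 samples (x axis). Filled points are the mean of the 2 arrays, up triangles the array with the sample in Cy5 and down triangles that with the sample in Cy3. Ndrg1 runs from -2.00 for Auto.Pos 2 to 1.77 for WT 2, Eno1 and Pfkl are lowest in Auto.Neg 2 and Auto.Pos 1, and the dye gap is widest for Pgk1.

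Ndrg1 averaged 1.76 for WT (SD 0.0077, n = 2), 0.02 for Auto.Neg (SD 0.89, n = 2) and -1.03 for Auto.Pos (SD 1.38, n = 2). The difference of Auto.Pos from WT was -2.79 (SE 0.75 from the limma fit across all genes), a 6.90-fold lower level, and the groups did not overlap. That of Auto.Neg from WT was -1.75 (SE 0.75), 3.35-fold lower, again with no overlap. Groups did not overlap for 29.6% of all genes between Auto.Pos and WT and for 25% between Auto.Neg and WT. Between Auto.Pos and Auto.Neg the difference was -1.04 (SE 0.75) and the 4 samples overlapped. These 3 comparisons share samples, so they are set side by side and not counted as separate support. In RNA from a cell suspension, fewer cells of a type and less RNA per cell cannot be told apart.

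The size of the Ndrg1 difference depended on the sample. Without Auto.Pos sample 2 the difference from WT was -1.81, and without Auto.Pos sample 1 it was -3.76. Inside scan day 3, the single pair of Auto.Pos sample 2 and WT sample 2 gave -3.76. Inside slide 2, Auto.Pos sample 1 minus Auto.Neg sample 2 gave -0.70. Leaving out 1 sample moved the difference of Auto.Neg from WT between -2.38 and -1.11, and that of Auto.Pos from Auto.Neg between -2.01 and -0.07. Read by the labels of the submitters' table, the differences were -0.75 for Auto.Pos from WT, -0.59 for Auto.Neg from WT and -0.15 for Auto.Pos from Auto.Neg. There, the values under the name of Auto.Pos sample 1 follow the scanner files of WT sample 1, and the values under that of WT sample 2 follow Auto.Neg sample 1. Under the name of each Auto.Neg sample, a column of sample over reference was averaged with a column of reference over sample. The -0.59 and -0.15 are therefore not differences in sample over reference.

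Markers of macrophages and monocytes moved in the same direction as Ndrg1 in 3 of the 4 comparisons. Of 9 measured markers 8 lay lower in Auto.Pos than in WT (median difference -0.44), 9 lower in Auto.Neg than in WT (-0.57), and 8 higher in Edited than in Non-edited (0.10). Between Auto.Pos and Auto.Neg, 6 of the 9 lay higher (0.03). Their median log2 ratio was 1.03 to 1.73 for WT, 0.54 to 1.16 for Auto.Neg, 1.06 to 1.98 for Auto.Pos, 0.53 for Non-edited and 0.66 for Edited. Inside scan day 3, where Ndrg1 read -2.00 in Auto.Pos sample 2 and 1.77 in WT sample 2, 8 of the 9 markers were lower in the Auto.Pos sample, from Lyz2 at -2.11 and Fcgr1 at -1.48 to Cd68 at -0.09, and Marco was higher (0.30). These counts take 1 probe per gene. The other Csf1r probes gave 0.30 and -0.06 for Auto.Pos minus WT and 0.16 and -0.36 for Auto.Neg minus WT. In these 2 comparisons the other Lyz2 probe gave -0.09 and -0.24, and the other Fcgr1 probe -0.25 and -0.10. Both other Csf1r probes read higher in Auto.Pos sample 2 than in WT sample 2 (0.39 against 0.04, 1.35 against 1.16). Plasma cell markers lay lower in Auto.Pos than in WT for 6 of 6 genes (median -0.61) and in Auto.Neg than in WT for 4 of 6 (-0.14). Between Auto.Pos and Auto.Neg 3 of 6 plasma cell markers lay lower (-0.25), so the medians of this list had the direction of Ndrg1 in all 4 comparisons. Their levels were -2.28 to -2.20 for WT, -3.06 to -2.45 for Auto.Neg and -2.97 to -2.72 for Auto.Pos, and 4 of 6 lay higher in Edited than in Non-edited (0.20). Erythroid and platelet medians were -0.13 (Auto.Pos minus Auto.Neg), -0.20 (Auto.Pos minus WT) and -0.35 (Auto.Neg minus WT), and neutrophil medians -0.16, -0.01 and -0.49. T cell medians lay above 0 in these comparisons, and those of the B cell, proliferation and handling lists had mixed signs. Marker lists besides those of macrophages and plasma cells also differed between Edited and Non-edited. Neutrophil markers were lower for 6 of 7 genes (median -0.43), with Camp at -2.64, Ltf at -1.90 and Mpo, the exception, at 1.62, all 3 past the 2-fold rule. The macrophage marker Adgre1 passed it too, at 1.49, and the plasma cell marker Xbp1, at -1.03. T cell markers were lower for 9 of 10 genes (-0.32), proliferation genes for 10 of 10 (-0.35), erythroid and platelet markers for 7 of 9 (-0.20) and handling genes for 7 of 8 (-0.26), while B cell markers were higher for 8 of 10 (0.13). The part of these cells in the Ndrg1 values was not tested.

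Edited cells carried more Ndrg1 RNA than Non-edited cells, by 2.13 on the log2 scale or 4.37-fold. The difference was 2.16 with the sample in Cy5 and 2.09 with the sample in Cy3. Each group is 1 sample, so no replicate check exists, and the 2 arrays of a sample repeat the same RNA. Of the 9 measured members, Ndrg1 alone (1 of 9) differed 2-fold or more the same way with either dye, a rule that 1.4% of all genes met (284 of 20350, of which 249 were higher in Edited). Both samples were scanned on day 4, on different slides. Auto.Neg sample 1, scanned on the same day, read -0.62, between the Edited and Non-edited values.

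Over the 8 samples Ndrg1 had a standard deviation of 1.39, and 0.498% of 20463 genes had a larger one. The glycolysis members lay on both sides of the median of all genes, 0.32. Slc2a1, Hk2, Aldoa and Pgk1 had standard deviations of 0.14 to 0.16, which 81% to 83.5% of genes exceeded, and Pdk1 had 0.20 (72.5% of genes larger). Ldha had 0.35 (44.1% larger) and Pfkl 0.50 (22.9%). Eno1, at 0.77, was among the more variable genes, with 5.71% larger.

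Among the glycolysis members, 0 of 8 lay 2-fold apart in any of the 3 replicated comparisons, where 0.958% (Auto.Pos and Auto.Neg), 4.61% (Auto.Pos and WT) and 3.77% (Auto.Neg and WT) of all genes did. limma called 0 of the 9 measured members between Auto.Pos and Auto.Neg, where it called 0.0147% of all genes (3 of 20469). It also called 0 of 9 between Auto.Pos and WT and 0 of 9 between Auto.Neg and WT, where it called 0% of all genes. At an unadjusted p under 0.05 stood 213, 1152 and 941 genes of the whole table, in this order. Groups did not overlap for Aldoa and Pgk1 between Auto.Pos and Auto.Neg (2 of 9, both lower in Auto.Pos, against 19.2% of all genes in either direction and 8.17% in this one). They did not overlap for Pfkl, Pgk1 and Ndrg1 between Auto.Pos and WT (3 of 9, all lower in Auto.Pos, against the 29.6% above and 10.4% in this direction). Between Auto.Neg and WT they did not overlap for Ndrg1 (1 of 9, lower in Auto.Neg, against 25% and 9.57%).

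**Figure D2:**
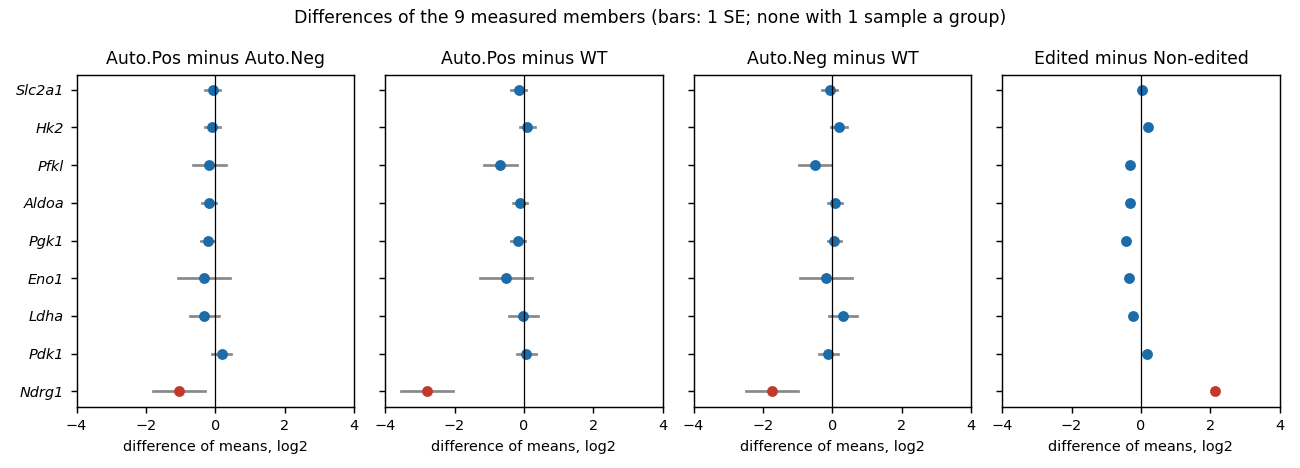
Differences of group means in log2 units (x axis) of the 9 measured genes (y axis) in the 4 comparisons, with bars of 1 standard error from the limma fit and no bar for the comparison of 1 sample with 1. Ndrg1 lies at -1.04, -2.79, -1.75 and 2.13, and the other 8 genes between -0.68 and 0.30.

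The median difference of the 8 measured glycolysis members was -0.18 between Auto.Pos and Auto.Neg, with 7 of 8 lower, beside a median of 0.02 over all genes. It was -0.13 between Auto.Pos and WT, with 6 of 8 lower (all genes 0.06). Between Auto.Neg and WT it was -0.01, with 4 of 8 lower (all genes 0.04). Edited minus Non-edited gave -0.27, with 5 of 8 lower (all genes -0.03). There the sign changed with the dye for Aldoa, one of the lower genes (0.05 with the sample in Cy5, -0.65 in Cy3). It also changed for Slc2a1 (0.16 and -0.11) and Pdk1 (-0.04 and 0.37), but not for the other members. The median absolute difference of all genes was 0.14, 0.21, 0.19 and 0.16 for the 4 comparisons in the order given. Scaling the arrays to equal spread turned the medians against WT to 0.26 (Auto.Pos) and 0.18 (Auto.Neg), and gave -0.08 between Auto.Pos and Auto.Neg. Median centring in place of loess took the median of Edited minus Non-edited to -0.02, and that of all genes to 0.10. Read by the labels of the submitters' table, the medians were -1.38, 0.03, 1.29 and -0.19. In that table the Cy3 column of Auto.Neg sample 1 and the Cy5 column of Auto.Neg sample 2 ran as reference over sample. Their partner columns ran as sample over reference, so the mean of each Auto.Neg sample mixed opposite directions. The -1.38 and 1.29 are therefore not differences in sample over reference.

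Slc2a1, the glucose transporter of the plasma membrane, was the only glycolysis member above the reference in every sample by the mean of the 2 arrays. It read 0.37 and 0.22 for Auto.Neg, 0.23 and 0.22 for Auto.Pos, 0.57 and 0.18 for WT, 0.47 for Non-edited and 0.50 for Edited. The groups overlapped in all 3 comparisons, and the spread within WT was wider than any difference between groups. Those differences ran from -0.15 to -0.07 (SE 0.22). The Cy5 minus Cy3 difference ran from -1.53 to -0.54, so Cy3 was higher in every sample. With the sample in Cy5, it read below the reference in Auto.Neg sample 2 (-0.41), Auto.Pos samples 1 and 2 (-0.54 and -0.18) and WT sample 2 (-0.18). The probe lies on chromosome 4 from 118513698 to 118513757.

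Hk2, a hexokinase that traps glucose in the cell by phosphorylation, lay far below the reference in all samples. It read -2.85 and -2.73 for Auto.Neg, -2.85 and -2.90 for Auto.Pos, -2.77 and -3.18 for WT, -2.99 for Non-edited and -2.80 for Edited. All groups overlapped, with WT sample 2 the lowest. The differences were -0.09 between Auto.Pos and Auto.Neg, 0.10 between Auto.Pos and WT and 0.19 between Auto.Neg and WT (SE 0.22 each). The probe lies on chromosome 6 from 82750613 to 82750672.

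Pfkl encodes the liver-type subunit of phosphofructokinase, which catalyses the committed step of the pathway. It read -0.88 and -1.97 for Auto.Neg, -1.95 and -1.26 for Auto.Pos, -0.63 and -1.22 for WT, -0.79 for Non-edited and -1.11 for Edited. Auto.Neg sample 2 and Auto.Pos sample 1 were the lowest, and both Auto.Pos samples lay below both WT samples. The difference of Auto.Pos from WT was -0.68 (SE 0.47). Inside scan day 3 the difference was -0.05, and without 1 sample it ran from -1.03 to -0.34. Between Auto.Pos and Auto.Neg it was -0.18 (SE 0.47), and 0.02 inside slide 2. The probe lies on chromosome 10 from 77642785 to 77642844.

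Aldoa, the aldolase that splits the 6-carbon sugar, had 2 probes close together on chromosome 7. The brighter (122891843 to 122891902) read -0.30 and -0.39 for Auto.Neg, -0.56 and -0.51 for Auto.Pos, -0.54 and -0.29 for WT, -0.13 for Non-edited and -0.43 for Edited. Both Auto.Pos samples were below both Auto.Neg samples, and of the WT samples 1 lay with Auto.Pos and 1 with Auto.Neg. The difference of Auto.Pos from Auto.Neg was -0.19 (SE 0.19), with -0.17 inside slide 2. The other probe gave -0.22, with groups that overlapped (0.17 and -0.44 for Auto.Neg, -0.52 and -0.20 for Auto.Pos). On the brighter probe the dye orientations differed by 0.69 to 1.78, more than any 2 samples did.

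Pgk1, which makes the first ATP of the pathway, was printed on 10 spots per array by 1 probe, of which 7 to 10 were usable, and on 1 spot by another, both on chromosome X. The array with 7 was one of Edited. The first probe (101530787 to 101530846) read -2.38 and -2.29 for Auto.Neg, -2.49 and -2.62 for Auto.Pos, -2.30 and -2.47 for WT, -2.27 for Non-edited and -2.69 for Edited. Both Auto.Pos samples lay below both Auto.Neg and both WT samples, and Edited was the lowest of all. The spots of an array differed with a standard deviation of 0.06 to 0.18 (median 0.11), and no other member probe had more than 1 spot. The differences were -0.22 from Auto.Neg and -0.17 from WT (SE 0.19 each), a level 1.17-fold and 1.13-fold lower. Inside slide 2 and inside scan day 3 they were -0.19 and -0.16. The second probe gave -0.21 and -0.19, and its groups overlapped (-2.61 and -2.25 for Auto.Neg, -2.41 and -2.87 for Auto.Pos, -2.16 and -2.74 for WT). Edited minus Non-edited was -0.42, with -0.28 when the sample was in Cy5 and -0.57 when it was in Cy3. The dye orientations of the first probe differed by 1.64 to 2.13, the widest dye gap among the members, and always the same way.

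Eno1, the enolase of the late steps, varied most among the glycolysis members. It read -0.23 and -2.28 for Auto.Neg, -2.12 and -1.04 for Auto.Pos, -1.13 and -0.97 for WT, -0.27 for Non-edited and -0.62 for Edited. The lowest values were those of the 2 samples on slide 2, and the highest those of Auto.Neg sample 1 and Non-edited, both of scan day 4. All groups overlapped, and the Auto.Neg samples alone spanned 2.05, the whole range of the gene. The differences were -0.33 between Auto.Pos and Auto.Neg, -0.53 between Auto.Pos and WT and -0.20 between Auto.Neg and WT (SE 0.75 each). They were 0.16 inside slide 2 and -0.07 inside scan day 3. Without 1 sample the first ran from -1.35 to 0.70.

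Ldha, the lactate dehydrogenase subunit that makes lactate, had 2 probes that ordered the samples differently. The brighter, downstream probe (chromosome 7 from 43031720 to 43031779) read -2.76 and -2.11 for Auto.Neg, -2.32 and -3.18 for Auto.Pos, -2.47 and -2.99 for WT, -2.52 for Non-edited and -2.76 for Edited. The upstream probe, whose sequence is printed above, read -1.50 and -3.03 for Auto.Neg, -3.08 and -1.96 for Auto.Pos, -2.23 and -1.60 for WT, -1.39 for Non-edited and -1.65 for Edited. Auto.Neg sample 2 and Auto.Pos sample 1 were the highest pair on the downstream probe and the lowest pair on the upstream one. The difference of Auto.Pos from WT was -0.02 (SE 0.41) on the downstream probe and -0.60 on the upstream one, and every group overlapped on both. Auto.Pos minus Auto.Neg was -0.32 and -0.26, and Auto.Neg minus WT 0.30 and -0.35.

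Pdk1, the kinase that shuts pyruvate dehydrogenase, had 2 probes on chromosome 2. The brighter (71747473 to 71747532) read -1.80 and -1.57 for Auto.Neg, -1.69 and -1.30 for Auto.Pos, -1.82 and -1.31 for WT, -1.58 for Non-edited and -1.41 for Edited. The groups overlapped, with 1 high and 1 low sample in each. The differences were 0.18, 0.07 and -0.12 (SE 0.28 each) for Auto.Pos from Auto.Neg, Auto.Pos from WT and Auto.Neg from WT. The other probe ranged only from -2.04 to -1.67 and gave -0.11, -0.02 and 0.10.

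Gapdh, the dehydrogenase often used as a reference gene, can be read only through the 2 probes shared with other transcripts. The LOC380687 probe read -1.51 and -1.79 for Auto.Neg, -1.95 and -1.69 for Auto.Pos, -1.37 and -1.42 for WT, -1.91 for Non-edited and -2.06 for Edited. Both WT samples lay above all others on it. The MGC68323 probe read -0.87 and -2.30 for Auto.Neg, -2.39 and -1.35 for Auto.Pos, -1.50 and -0.96 for WT, -0.94 for Non-edited and -1.28 for Edited. On this probe the samples of slide 2 were the lowest and all groups overlapped. The difference of Auto.Pos from WT was -0.42 on the first and -0.64 on the second probe, and -0.27 and -0.39 inside scan day 3.

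Eno1, Pfkl, the upstream Ldha probe and the MGC68323 probe were each lowest in the 2 samples of slide 2. The downstream Ldha probe, Hk2 and both Pgk1 probes were not. Over 4191 genes with 2 kept probes lying 300 to 20000 bases apart on the genome, the median of the downstream minus the upstream log2 ratio was 0.10 in Auto.Neg sample 2 and 0.14 in Auto.Pos sample 1. It was -0.12 in Auto.Neg sample 1 and Non-edited, -0.04 for Edited, -0.03 in Auto.Pos sample 2, -0.02 in WT sample 2 and 0.00 in WT sample 1. The samples with the highest index were thus those with the lowest Eno1, and those with the lowest index had the highest Eno1. With the sample in Cy5, the raw reference read 29100 and 29200 on slide 2 and 8230 to 17400 elsewhere for Pfkl. It read 6820 and 6430 against 2220 to 3360 for Eno1, and 136000 and 133000 against 36100 to 78000 for upstream Ldha. The raw sample channel read 2750 and 2960 against 2400 to 4930 for Pfkl and 334 and 352 against 781 to 1240 for Eno1. For Ldha it read 6610 and 6870 against 5230 to 12400. With the sample in Cy3 the slide 2 reference overlapped the others. Slide, scanner software version and the index change together in slide 2, and their part in the Eno1, Pfkl and Ldha values was not tested. Ndrg1 was not lowest there, with 0.65 and -0.05 in the samples of slide 2, in the middle of its range over the 8 samples. Within Auto.Neg and within Auto.Pos, however, the sample of slide 2 was the higher one. The other samples of these groups read -0.62 (Auto.Neg sample 1) and -2.00 (Auto.Pos sample 2). The part of the slide in the Ndrg1 values was not tested either.

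The genes whose profile over the 8 samples was most like that of Ndrg1, among 3384 genes with a standard deviation of at least 0.5, were Pcp4 (Pearson r = 0.994), Aldh3b1 (0.957), Rgl1 (0.954), Il18 (0.935) and Kcnmb4os2 (0.909). These correlations are a description over 8 samples that share slides and the reference. Pcp4, which encodes a small calmodulin-binding protein, read 0.79 and 0.95 for WT and -3.29 in Auto.Pos sample 2, like Ndrg1 its extremes. It read -1.94 and -0.64 for Auto.Neg, -0.85 in Auto.Pos sample 1, -2.70 for Non-edited and -0.25 for Edited. No glycolysis member resembled Ndrg1: the correlations with the 8 measured ones ran from -0.28 to 0.26. The mean profile of the glycolysis members, each centred on its own mean, was lowest in Auto.Pos sample 1 (-0.23) and highest in Non-edited (0.23). The genes most like it were Ogdh (0.967), Cpm (0.957), 9930012K11Rik (0.956), Il2rg (0.949) and Tcirg1 (0.945). Ogdh, a subunit of the 2-oxoglutarate dehydrogenase of the mitochondrial cycle, read 0.25 and 0.32 in the samples of slide 2 and 0.84 to 1.91 in the others.

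**Figure D3:**
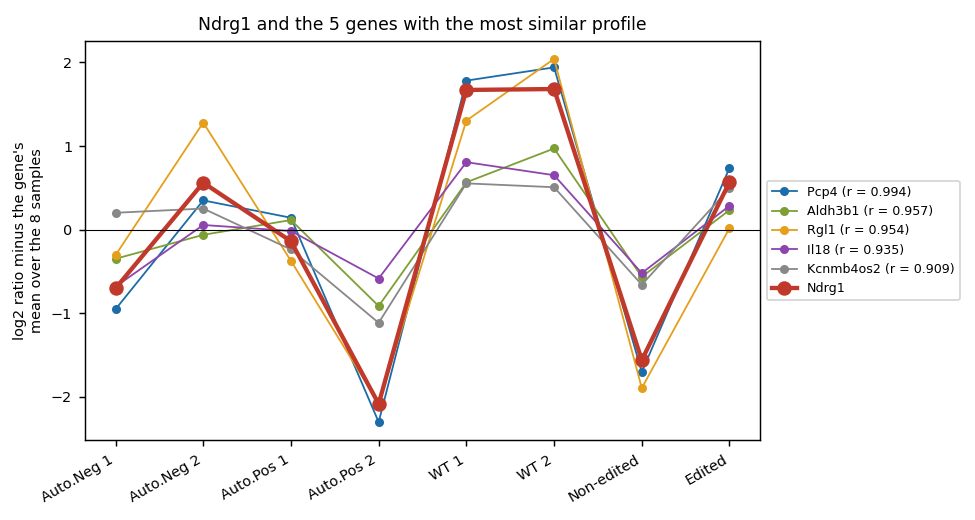
Log2 ratio minus each gene's mean over the 8 samples (y axis) by sample (x axis) for Ndrg1 and the 5 genes most correlated with it. In all 6 genes WT 1 and WT 2 are the highest samples, and Pcp4 reaches -3.29 before centring in Auto.Pos 2.

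The rest of the pathway was read from 11 lists holding 140 genes, of which 129 were tested. limma called 0 of the 129 in each of the 3 replicated comparisons. At an unadjusted p under 0.05 stood 1 gene between Auto.Pos and Auto.Neg (0.775%, beside 1.04% of all genes), 8 between Auto.Pos and WT (6.2%, beside 5.63%) and 7 between Auto.Neg and WT (5.43%, beside 4.6%). Between Edited and Non-edited 2 of the 129 met the 2-fold rule with either dye, namely the testis-type kinase gene Pgk2 (1.84) and Pfkfb1 (1.07), a regulator of phosphofructokinase, both higher in Edited. Other glycolytic enzymes and isoforms lay lower for 15 of 23 genes in Auto.Pos than in WT (median -0.16) and for 15 of 23 in Auto.Neg than in WT (-0.14). The lowest was the hexokinase gene Hk1 in both, at -1.06 (SE 0.23) and -0.69, reading 0.56 and 0.28 for WT, -0.08 and -0.45 for Auto.Neg and -0.57 and -0.70 for Auto.Pos. Its 4 other probes ranged from -0.96 to -0.13 between Auto.Pos and WT. Between Auto.Pos and Auto.Neg 12 of 23 lay lower (median -0.13), from Gpi1 at -0.41 to Bpgm at 0.41.

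Other hypoxia-responsive genes lay on both sides of 0: 10 of 21 lay lower in Auto.Pos than in WT (median 0.02) and 10 of 21 in Auto.Neg than in WT (0.03). Bhlhe40, a transcriptional repressor induced by HIF, was the lowest member in both, at -1.69 and -1.31 (SE 0.25 each). It read 0.36 and 0.33 for WT, -0.72 and -1.21 for Auto.Neg, -1.19 and -1.51 for Auto.Pos, -0.35 for Non-edited and 0.41 for Edited. Both WT samples lay above the 4 samples of the other replicated groups, as for Ndrg1, and Edited lay 0.77 above Non-edited. Ddit4, an inhibitor of mTOR signalling named after its values were seen, was the other gene of the list at least 2-fold apart, at -1.32 and -1.16 (SE 0.53 each). It read -0.65 and -0.25 for WT against -2.50 to -1.03 for the 4 samples of Auto.Neg and Auto.Pos, and Edited minus Non-edited was -0.05. The highest were the histone demethylase gene Kdm3a, at 0.70 between Auto.Pos and WT with 0.20 and 0.02 on its other probes, and Adm, at 0.40 between Auto.Neg and WT. Of HIF regulators, 5 of 9 lay lower in each of these comparisons (medians -0.08 and -0.09), with the HIF subunit gene Epas1 lowest at -0.58 and -1.07, although its other probe gave 0.49 and -0.11. Hif1a, the oxygen-regulated subunit itself, lay 0.71 higher in Auto.Pos than in Auto.Neg (SE 0.89). The other Ndrg genes, Ndrg2, Ndrg3 and Ndrg4, lay between -0.39 and 0.06 for Auto.Pos minus WT and between -0.26 and -0.07 for Auto.Neg minus WT, and Edited minus Non-edited was -0.57, -0.10 and 0.14. The other 2 Ndrg3 probes gave -0.55 and -0.70 for Auto.Pos minus WT, -0.07 and -0.27 for Auto.Neg minus WT, and 0.26 and -0.46 for Edited minus Non-edited.

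Glucose and lactate transporters besides Slc2a1 lay lower for 5 of 10 genes in Auto.Pos than in WT (median -0.004) and for 2 of 10 in Auto.Neg than in WT (0.16). Slc2a6, a transporter of intracellular membranes, was the highest, at 1.51 and 1.59 (SE 0.32 each), with 3.81 and 3.95 for Auto.Neg, 3.80 and 3.80 for Auto.Pos and 2.71 and 1.86 for WT. The tricarboxylic acid cycle lay lower for 15 of 17 genes in Auto.Pos than in WT (median -0.37) and for 15 of 17 in Auto.Neg than in WT (-0.24), with Idh2 at -0.72 and Sdha at -0.95 as the lowest. The Sdha probes disagreed, with -0.28 and 0.90 on the other 2 between Auto.Neg and WT. Pentose phosphate genes lay lower for 5 of 7 and 6 of 7 (medians -0.40 and -0.14), with Pgd lowest at -0.92 and -0.65 (SE 0.18 each). Genes of pyruvate entry into mitochondria had medians of -0.05 and -0.07, from Pdk3 at -0.50 (0.17 on its other probe) to Dld at 0.77 in Auto.Pos minus WT. Glycogen metabolism genes had medians of -0.10 and -0.13, with the phosphorylase gene Pygl highest at 1.07 and 1.29 and at -1.10 in Edited minus Non-edited. Its other probe gave 0.44, 0.83 and -0.48. Gluconeogenesis genes had medians of 0.34 and 0.25 over 5 genes. Regulators of glycolytic genes had medians of 0.23 and 0.46. Gsk3b was the highest of that list between Auto.Pos and WT, at 1.06, where WT sample 2 alone read -1.51 and its other probe gave -1.01.

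Between Auto.Pos and Auto.Neg the list medians lay between -0.26 (transporters) and 0.13 (HIF regulators), and none of the 129 genes was 2-fold apart. The lowest and highest transporters were Bsg, a chaperone of lactate transporters, at -0.75 and Slc2a2 at 0.19. Among hypoxia-responsive genes Plin2, a lipid droplet protein, stood at -0.45 and the transferrin receptor gene Tfrc at 0.35, and Egln2, a HIF hydroxylase, was the lowest HIF regulator at -0.16. The cycle ran from Ogdh at -0.46 to Sdhd at 0.51 (median 0.09), the pentose phosphate pathway from Tkt at -0.40 to Rpe at 0.66 (-0.18), and glycogen metabolism from Pygb at -0.30 to Gbe1 at 0.37. Pyruvate entry ran from Pdk3 at -0.29 to Dld at 0.47 (0.06), gluconeogenesis from G6pc3 at -0.30 to Pck1 at 0.22 (-0.05), and the highest regulator was Txnip at 0.25 (list median -0.18).

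Between Edited and Non-edited the list medians lay between -0.18 (gluconeogenesis) and 0.07 (pyruvate entry). The lowest genes of their lists were Plin2 (-1.13), Pygl (-1.10), Pfkm (-0.80), the muscle-type phosphofructokinase, Pck2 (-0.68), Egln3 (-0.57), Slc16a3 (-0.48), Pdk3 (-0.46), Idh3b (-0.44), Foxo1 (-0.31) and Tkt (-0.29). The highest of their lists were Pck1 (0.74), Sdhd (0.64), Pgm1 (0.46), Slc2a6 (0.39), Vhl (0.32), Mpc2 (0.22) and Prkaa1 (0.18). In the comparisons with WT the extremes not yet named were Ldhb (0.72 for Auto.Pos, 0.55 for Auto.Neg), Egln3 (0.72 and 0.44), Sucla2 (0.52 and 0.40), Slc16a7 (-0.73 and -0.90) and Max (-0.72 and -0.57). For Auto.Pos minus WT they were also Rpe (0.45), Pck1 (0.69) and G6pc3 (-0.52), and for Auto.Neg minus WT Pdp1 (0.62), Pcx (-0.36), Pgls (0.27), Fbp1 (0.68) and G6pc3 (-0.22). Each of these is 1 gene picked as an end of its list, and none passed the limma test.

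**Figure D4:**
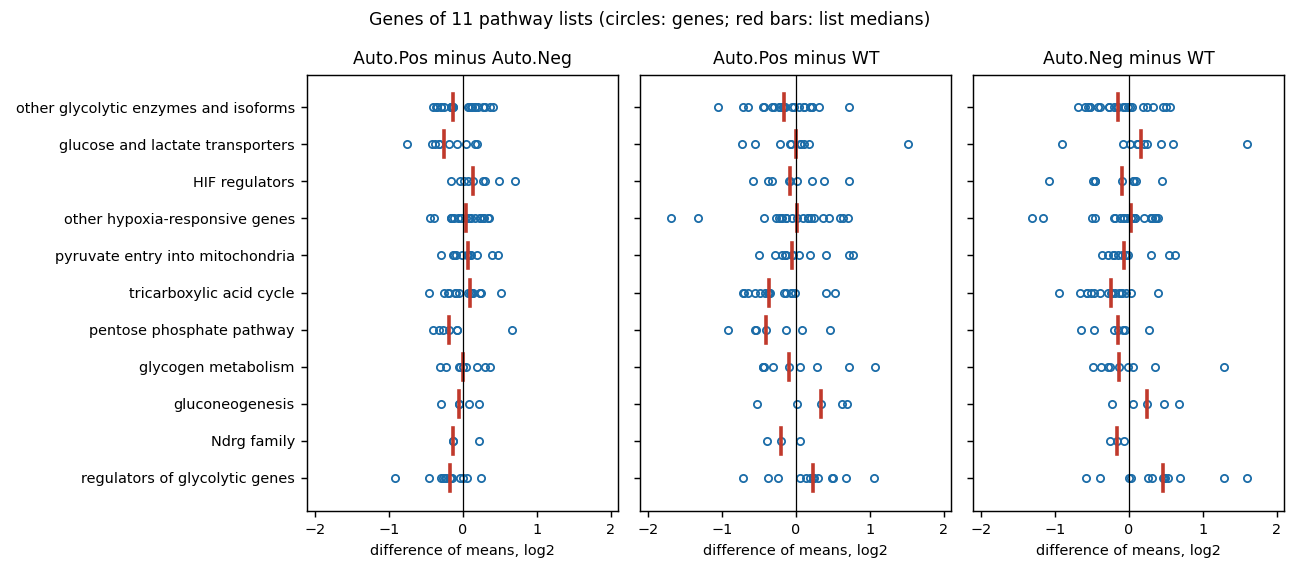
Differences of group means in log2 units (x axis) of the 129 tested genes of 11 pathway lists (y axis) in the 3 replicated comparisons. Circles are genes and red bars list medians. Single genes such as Bhlhe40 at -1.69 and Slc2a6 at 1.51 stand apart between Auto.Pos and WT, while the list medians lie between -0.40 and 0.34.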

How the data were processed

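Each of 8 RNA samples (100 ng of total RNA) was hybridised on 2 Agilent arrays with the dyes exchanged. The authors deposited scanner files whose spot brightness is a raw intensity, made with Feature Extraction 9.1.1.1, 9.1.3.1 or 9.5.1.1 per the file headers. The same files hold the software's log10 ratio of red over green, deposited after its own background subtraction and dye normalization. A deposited series table holds log2 ratios, with a scale and direction found here by setting its columns against the scanner files (absolute correlation 0.977 to 0.996). Of these 16 columns 10 matched another array better than their own, so the series table served as an alternative only. The submitters' processing notes name limma.

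Mean intensities were background-corrected (normexp, offset 50) and loess-normalized within arrays in limma 3.58.1 (R 4.3.3, data.table version 1.17.8), turned to sample over reference, and averaged over the 2 arrays of a sample. Probes entered the fit if at least 2 samples had them marked well above background in their own channel on both arrays (29640 of 41174). The probe of highest mean intensity stood for a gene. One value per group was fitted over all 8 samples (3 residual and 2.11 prior degrees of freedom), with Benjamini-Hochberg adjustment over 20469 genes and a threshold of 0.05. Of the gene values, 356 rest on 1 array and 6 genes lack a sample. Edited and Non-edited have 1 sample each, so a gene was called there where both dye orientations differed at least 2-fold the same way. The number of arrays limits the precision.

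Probes were named by accession (22951), symbol (6659) or synonym (3109) through the RefSeq gene table, or kept the file's name (8455). Probe coordinates are mm7 per the file headers. The members and all lists were chosen with earlier results of these data known. Named are all members, and from each list the genes called and the highest and lowest in each of the 4 comparisons, plus the 5 genes most correlated with Ndrg1 and with the glycolysis mean. Some genes that this rule selects are not reported here. The code was tested on simulated data. Deviations of samples with the same replicate number correlated at 0.252 between Auto.Pos and WT, but at -0.788 between Auto.Neg and Auto.Pos and -0.279 between Auto.Neg and WT, so the numbers were not taken to pair samples. Alternatives changed the background correction, normalization, filter, probe rule, source table, blocks and samples.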

Additional observations from a re-analysis of the deposited data

How the results depend on the processing

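Few samples limit every count of called genes. Between Auto.Pos and Auto.Neg the 3 called genes became 1 with median centring, 0 with scale normalization and 0 with no filter, 6 with the scanner protocol as a block, 99 with the slide as a random block and 7655 with the submitters' table read by its labels. Between Auto.Pos and WT the 0 became 15 with the scanner log ratio, 6 with scale normalization, 14 with the table rematched to the scanner files and 275 with the slide block. Between Auto.Neg and WT the 0 became 6900 with the table by its labels, 1 with it rematched and 172 with the slide block. The slide fit took arrays as units (consensus correlation 0.526), so its calls rest on 2 arrays per RNA. With the replicate number as a block, 0 genes were called between Auto.Pos and Auto.Neg, and 0 with the crossed pairing, added after seeing the data. Leaving out 1 sample gave 0 to 0 calls in each replicated comparison. The scanner log ratio gave 808 genes for Edited and Non-edited in place of 284. Read by the table's labels, the glycolysis median was -1.38 between Auto.Pos and Auto.Neg and 1.29 between Auto.Neg and WT, and Ndrg1 was -0.75 (Auto.Pos minus WT) and -0.59 (Auto.Neg minus WT). By these labels each Auto.Neg sample averaged a column of sample over reference with a column of reference over sample. The 7655 and 6900 calls rest on these mixed Auto.Neg values too. Inside scan day 3 Ndrg1 was -3.76. Leaving out 1 sample moved Ndrg1 from -2.01 to -0.068, from -3.76 to -1.81 and from -2.38 to -1.11 in the 3 comparisons, and the glycolysis medians from -0.18 to -0.07, from -0.27 to -0.12 and from -0.03 to 0.03. The latter also changed sign under scale normalization (0.26 for Auto.Pos and 0.18 for Auto.Neg minus WT), by the table's labels (0.03 for Auto.Pos minus WT) and, for Auto.Neg minus WT, with the table rematched (0.003) and the slide block (0.0013). Ndrg1 kept its sign in all settings run, and Edited minus Non-edited ran from 2.13 to 2.25. Of 544 values of single members under alternatives, 489 moved by less than the spread between replicates and 55 by more. The 489 include settings that could not move a value, so they do not measure stability. Every member probe passed each version of the filter, so changing it left the members' differences as they were. The scanner protocol and the replicate number as blocks left them unchanged too. The spread was each gene's own, from 0.09 for Pgk1 to 0.95 for Eno1, so a variable gene seldom counted as moved. The cause of the changes between settings was not tested.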
